A study of Rattus norvegicus with 12 samples.

Results

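The creatine kinase and energy buffer genes are a set of 9 rat genes: Slc6a8, Ckb, Ckm and Ckmt2 of the creatine system, Ak1 of the adenylate kinases, Mb of oxygen storage, Prkaa2 and Prkag1 of the AMP-activated protein kinase (AMPK), and Ampd3 of AMP breakdown. They were found by symbol among the 22517 probes of the array. A probe carried the symbol of 7 of the 9 genes, with 1 probe each, out of 13336 genes named on the array. No probe was named Ckmt2, the sarcomeric mitochondrial creatine kinase, or Ak1, the cytosolic adenylate kinase, in the annotation used here, so these 2 genes were not analysed here. The RNA came from the left ventricle of male rats aged 2 months on an outbred Wistar background (HsdBrl:WH), with 6 rats that carried a VEGF-B transgene under the alpha-myosin heavy chain promoter (VEGF-B TG) and 6 wildtype littermates (WT). That promoter drives the transgene in cardiomyocytes, so the muscle cells made the excess of VEGF-B, which binds VEGF receptor-1, while the RNA was taken from the whole ventricular wall. Each rat gave 1 array, an Illumina RatRef-12 BeadChip read as fluorescence of biotin-labelled cRNA. The array numbers 1 to 6 within a group are those of the sample titles.

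The heart turns over its ATP within seconds and holds only a small store of it, so cardiomyocytes keep an energy buffer. Creatine is taken up from the blood by the transporter Slc6a8, since the heart makes little of it, and creatine kinases then move the high-energy phosphate between ATP and phosphocreatine. Ckm encodes the muscle subunit of the cytosolic enzyme and Ckb the brain-type subunit, and the enzyme works as a dimer of either or of both. Adenylate kinase recovers ATP from ADP and forms AMP, which AMPK senses through its gamma subunits (Prkag1 and others) to switch on its catalytic alpha subunit (Prkaa2 in heart and skeletal muscle), whereas AMP deaminase (Ampd3) removes AMP. Myoglobin (Mb) stores oxygen and carries it within the muscle cell.

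The promoter sequences of Slc6a8, Ckb and Ckm are shown because these 3 genes of the creatine system had a lower signal, a higher signal that missed the threshold, and a bright signal with no call, as described below. They are RefSeq sequences of build GRCr8, on the strand of the gene, from 250 bases before to 50 bases after the annotated start. The window of Slc6a8 was chrX:156535767-156536066 (plus strand), that of Ckb chr6:136553415-136553714 (minus strand) and that of Ckm chr1:88189211-88189510 (plus strand). Capitals mark 2 motifs searched on both strands, the TATA box core TATANA and the E-box CANNTG. The E-box is a site read by factors of the basic helix-loop-helix family.
Slc6a8: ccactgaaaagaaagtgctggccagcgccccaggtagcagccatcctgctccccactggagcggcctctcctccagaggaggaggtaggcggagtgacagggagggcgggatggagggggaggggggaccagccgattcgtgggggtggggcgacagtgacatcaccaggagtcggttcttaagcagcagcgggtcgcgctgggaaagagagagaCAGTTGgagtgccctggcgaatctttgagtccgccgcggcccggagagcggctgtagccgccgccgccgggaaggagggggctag
Ckb: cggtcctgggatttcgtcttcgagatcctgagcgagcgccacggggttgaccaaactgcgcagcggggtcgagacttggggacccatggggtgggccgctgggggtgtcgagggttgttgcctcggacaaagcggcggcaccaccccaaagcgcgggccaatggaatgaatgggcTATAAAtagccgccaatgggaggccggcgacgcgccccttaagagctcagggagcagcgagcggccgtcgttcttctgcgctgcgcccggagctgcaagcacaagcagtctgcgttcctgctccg
Ckm: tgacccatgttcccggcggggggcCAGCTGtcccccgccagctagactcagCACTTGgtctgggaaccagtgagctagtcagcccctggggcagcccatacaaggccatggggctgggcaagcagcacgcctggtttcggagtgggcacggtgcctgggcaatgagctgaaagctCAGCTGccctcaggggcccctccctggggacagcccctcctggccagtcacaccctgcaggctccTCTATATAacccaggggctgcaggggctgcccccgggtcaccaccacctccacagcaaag
The Ckm window held 3 E-boxes and 2 overlapping TATA matches that began 10 and 8 bases before the annotated start. The Ckb window held 1 TATA match, 75 bases before the annotated start, and 0 E-boxes, and the Slc6a8 window held 1 E-box and 0 TATA matches. Of 33469 rat promoter windows of the same length, 26.5% held a TATA match and 72.1% an E-box. These matches are a description of the sequence, since no binding or promoter activity was measured here.

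The TG arrays detected 8820 to 9655 probes each and the WT arrays 8452 to 9251 (detection p under 0.05). Across the 9054 probes tested, 21.9% differed between TG and WT hearts at an adjusted p under 0.05 (limma), 11.6% being higher and 10.3% lower in TG. Of the 12 cardiomyocyte markers listed, 11 had a probe and all 11 were tested. Of these, 0 were higher in TG hearts, also at an unadjusted p under 0.05, and 4 were lower. The lower ones were led by Tnni3k (log2 difference -0.62, adjusted p = 0.00171), Casq2 (-0.63, adjusted p = 0.00602) and Ryr2 (-0.32, adjusted p = 0.0117). The other tested Ryr2 probes were dimmer and not called (-0.24, adjusted p = 0.0514, and -0.08, adjusted p = 0.416). The brightest Ryr2 probe lost its call when each array was centred on the cardiomyocyte markers, as described below (-0.13, adjusted p = 0.206). The summed intensity of the 11 markers, to which the bright probes gave most, overlapped at 154558 to 176675 in TG and 162072 to 179057 in WT hearts. Their mean log2 value did not overlap and was lower in TG, at 12.29 to 12.44 in TG and 12.53 to 12.62 in WT hearts. Endothelial markers were higher in TG for 4 of 5 tested genes, with summed signals of 8271 to 10121 in TG and 5660 to 7217 in WT, and macrophage markers for 4 of 4, with 2151 to 3032 in TG and 1570 to 2121 in WT. In whole tissue, fewer cells of a type and less RNA per cell cannot be told apart. The single rat Vegfb probe had a log2 difference of -1.04 (SE 0.58, adjusted p = 0.227), and whether it reads the transgene's transcript is not given in the sources used here, so the genotype labels could not be checked with it.

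All 7 genes were detected on all 12 arrays and entered the test. Of the 7 probes, 0 were called higher and 1 was called lower in TG hearts, which is 14.3% called beside 21.9% of all probes tested. At an unadjusted p under 0.05 there was 1 higher (Ckb) and 1 lower. The called gene was the creatine transporter Slc6a8. It was also the only probe of the 7 whose TG and WT values did not overlap, and 10.8% of all tested probes had no overlap. The median log2 difference of the 7 was -0.02, against -0.01 for all tested probes. The median size of a difference, whatever its sign, was 0.139 over all tested probes.

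**Figure D1:**
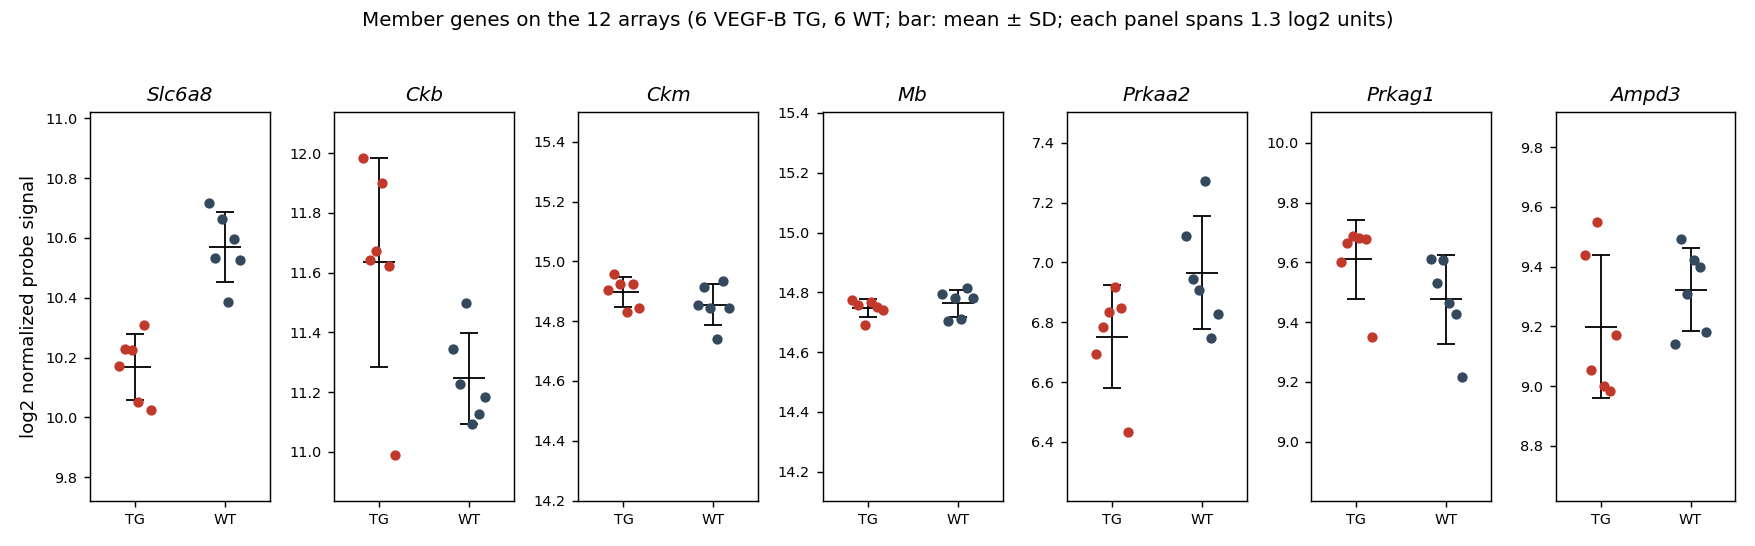
Log2 normalized probe signal (y axis, 1.3 log2 units in each panel) of the 7 measured genes on the 6 VEGF-B TG arrays (left in each panel) and the 6 WT arrays (right), 1 point per rat, with bars for the mean ± SD. The TG and WT points are apart for Slc6a8 (10.03 to 10.31 in TG, 10.39 to 10.72 in WT), 5 of 6 TG points lie above all WT points for Ckb, and the points overlap in the other 5 panels.

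Slc6a8, which carries creatine into the muscle cell, was lower in VEGF-B TG hearts. Its bead intensity (arbitrary fluorescence units, before normalization) was 1290, 1368, 1354, 1042, 1352 and 1189 on TG arrays 1 to 6, against 2028, 1616, 1605, 1506, 1757 and 1632 on WT arrays 1 to 6. Every TG heart read below every WT heart, both in raw intensity and after normalization. The mean intensity was 1266 ± 128 in TG and 1691 ± 184 in WT hearts (SD, n = 6 each). After normalization the log2 difference, TG minus WT, was -0.40 (SE 0.07, 95% interval -0.56 to -0.25, adjusted p = 0.00136 by limma), which is 0.757 times the WT signal. The decrease held its call when any 1 array was left out (adjusted p = 0.00107 to 0.00400) and in all 11 other treatments of the data (adjusted p = 0.000271 to 0.0281). Its difference was smallest, at -0.21, when each array was centred on its cardiomyocyte markers, an alternative added after the data had been seen. This centring subtracts 1 value per array and so raised the difference of every gene by the same 0.19, and the median of all tested probes stood at 0.18 rather than -0.01.

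Ckb, the brain-type creatine kinase subunit, read higher in most VEGF-B TG hearts but did not pass the test over all arrays. Its intensity was 4186, 3363, 3366, 3407, 3095 and 2146 on TG arrays 1 to 6, against 3082, 2541, 2802, 2415, 2492 and 2504 on WT arrays 1 to 6. TG hearts 1 to 5 lay above all WT hearts, and TG heart 6 lay below all of them. The mean was 3260 ± 659 in TG and 2640 ± 254 in WT hearts (SD, n = 6 each). The log2 difference was 0.39 (SE 0.14, 95% interval 0.09 to 0.68, adjusted p = 0.0573), 1.31 times the WT signal. TG heart 6 moved this value most: without it the difference was 0.52 and passed the threshold (adjusted p = 0.0019). Without WT heart 3 it was 0.44 (adjusted p = 0.0453), and the other 10 arrays left out in turn gave no call.

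**Figure D2:**
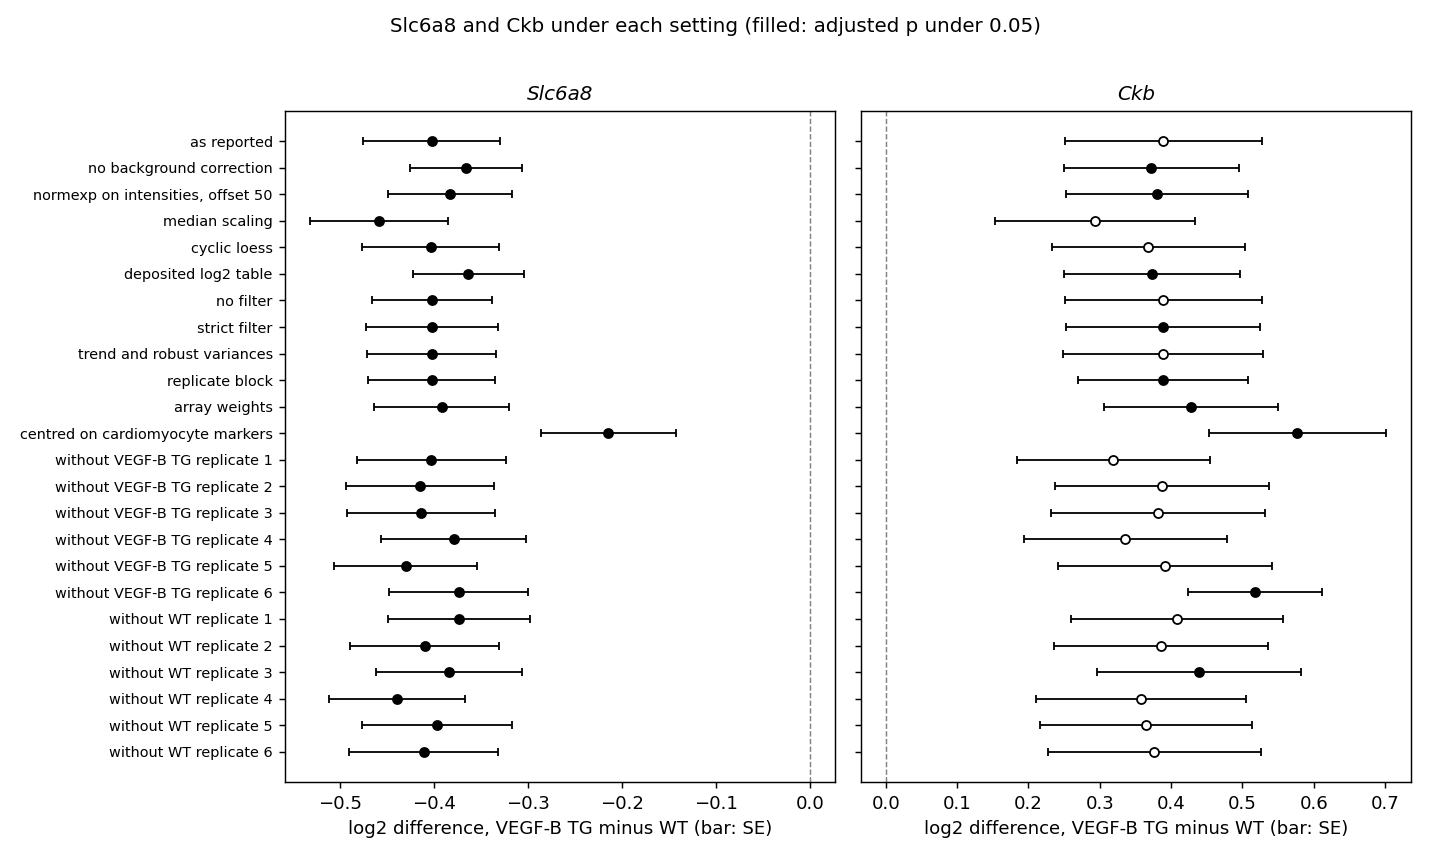
Log2 difference, VEGF-B TG minus WT (x axis), of Slc6a8 (left panel) and Ckb (right panel) under each treatment of the data (rows), with bars for the SE, filled points for an adjusted p under 0.05 and the dashed line at 0. All points of Slc6a8 are filled, between -0.46 and -0.21, whereas those of Ckb lie between 0.29 and 0.58 and are filled in some rows only.

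Whether Ckb was called also depended on the treatment of the data. With all arrays in the fit, it was called in 7 of 11 alternatives. It passed the threshold without background correction (adjusted p = 0.0382), with the values that the authors had normalized (adjusted p = 0.0379) and when centred on the cardiomyocyte markers (0.58, adjusted p = 0.00235), and not with median scaling (0.29, adjusted p = 0.15), cyclic loess, no filter, or trend and robust variances. Normexp, the stricter filter, the replicate block and array weights also gave a call. Most markers of endothelial cells and macrophages were higher in TG hearts, as given above, whereas those of other cell types were not. Of 3 smooth muscle markers tested, 0 were higher and 1 was lower (Tagln, -0.49, adjusted p = 0.00448 by limma). Of 6 fibroblast markers tested, 0 were higher and 1 was lower. The erythroid, atrial and fast skeletal muscle markers held 0 calls. Because Ckb is abundant in nerve tissue, neural markers were read as well: 4 of 5 with a probe (Snap25, Syt1, Mbp and Stmn2) were at background on all 12 arrays. The remaining one, Gap43, a growth cone protein, had a mean intensity of 259.2 ± 66.5 in TG and 325.3 ± 41.5 in WT hearts (log2 difference -0.66, adjusted p = 0.0911). The part of other cell types in the Ckb signal was not tested.

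Ckm, the muscle creatine kinase subunit and the most abundant isoform of the working heart, did not pass the test. Its intensity was 26966 at the lowest, 30819 at the median and 33119 at the highest of the 6 TG arrays, against 27331, 30478 and 32309 on the WT arrays. The ranges covered each other almost completely. The mean was 30320 ± 2190 in TG and 29990 ± 1860 in WT hearts (SD, n = 6 each), and the log2 difference was 0.04 (SE 0.06, 95% interval -0.08 to 0.16, adjusted p = 0.638). The interval thus allowed a signal between 5.3% lower and 12.1% higher in TG hearts. Centred on the cardiomyocyte markers, which shifted all probes upwards, the difference was 0.23 (adjusted p = 0.00976).

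Mb, the oxygen-binding protein of muscle, did not pass the test either. Its intensity was 25411 at the lowest, 26386 at the median and 30324 at the highest of the TG arrays, against 26353, 28316 and 30075 on the WT arrays. The groups overlapped along nearly their whole length. The mean was 27240 ± 1890 in TG and 28360 ± 1440 in WT hearts (SD, n = 6 each). The log2 difference was -0.02 (SE 0.05, 95% interval -0.13 to 0.10, adjusted p = 0.857), and its sign turned with cyclic loess scaling (0.08, adjusted p = 0.374) and with centring on the cardiomyocyte markers (0.17, adjusted p = 0.0387). The spread between rats of 1 group was narrow for both genes, with a residual SD of 0.0386 for Mb and 0.0603 for Ckm on the log2 scale, against a median of 0.165 over all tested probes. Both probes lay near the top of the measured range, where the brightest probe of an array read 33886 to 37843, and how far that flattened their differences was not tested.

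The signals of Ckb and Mb were also set against that of Ckm on the same array, as a description of the probe signals and not of relative amounts. Since Ckm read near the top of the measured range, these values add no support beyond those of Ckb and Mb alone. Ckb minus Ckm was -3.26 ± 0.34 in TG and -3.61 ± 0.16 in WT hearts on the log2 scale (SD, n = 6 each). That shift of 0.35 had the same exception as Ckb alone: 5 of 6 TG hearts lay above all WT hearts, and TG heart 6 had the lowest value of all 12, at -3.85. Mb minus Ckm was -0.15 ± 0.06 in TG and -0.09 ± 0.07 in WT hearts, and the groups overlapped.

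The AMPK members split in sign and neither passed the test. Prkaa2, the catalytic alpha subunit of muscle, gave a dim signal of 211 at the lowest, 240 at the median and 249 at the highest of the TG arrays, against 237, 249 and 289 on the WT arrays. The groups overlapped, with 2 TG hearts below all WT hearts after normalization. The mean was 236.8 ± 14.3 in TG and 258.7 ± 22.8 in WT hearts (SD, n = 6 each), with a log2 difference of -0.21 (SE 0.10, 95% interval -0.43 to 0.00, adjusted p = 0.145). Without background correction, the difference of this dim probe was -0.10 (adjusted p = 0.189). Prkag1, the widely expressed gamma subunit that binds AMP, read 785 at the lowest, 927 at the median and 980 at the highest of the TG arrays, against 727, 843 and 996 on the WT arrays. After normalization the groups overlapped, with 4 TG hearts above all WT hearts. The normalized TG values were close together apart from heart 6, which held the lowest of them. The mean was 905.9 ± 78.5 in TG and 852.1 ± 86.7 in WT hearts (SD, n = 6 each), and the log2 difference was 0.13 (SE 0.08, 95% interval -0.04 to 0.31, adjusted p = 0.276). It passed the threshold only when centred on the cardiomyocyte markers (0.32, adjusted p = 0.00332).

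Ampd3, an AMP deaminase that turns AMP into IMP, varied more among TG than among WT hearts and was not called. Its intensity was 572 at the lowest, 701 at the median and 903 at the highest of the TG arrays, against 692, 792 and 857 on the WT arrays. Of the normalized TG values, 3 lay below and 1 lay above all WT values. The mean was 725.1 ± 126 in TG and 778.8 ± 67.2 in WT hearts (SD, n = 6 each). The log2 difference was -0.12 (SE 0.11, 95% interval -0.35 to 0.10, adjusted p = 0.44), with the opposite sign after centring on the cardiomyocyte markers (0.06, adjusted p = 0.642).

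**Figure D3:**
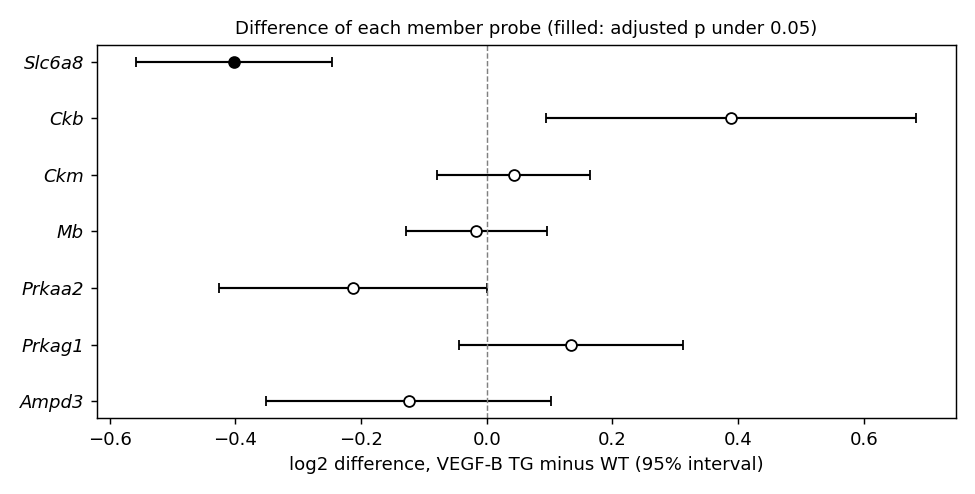
Log2 difference, VEGF-B TG minus WT (x axis), of the 7 measured genes (rows), with bars for the 95% interval, a filled point for an adjusted p under 0.05 and the dashed line at 0. Slc6a8 at -0.40 is the only filled point. The interval of Ckb, 0.09 to 0.68, is the widest, and those of Ckm and Mb are the narrowest. With centring on the cardiomyocyte markers, Mb and Ampd3 turned positive.

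The wider energy buffer pathways were read from 9 lists of genes. Leaving out the 7 members, 44 of their genes were tested, of which 5 were higher and 5 lower in TG hearts (22.7% called, beside 21.9% of all probes tested), with a median log2 difference of -0.04. In the list of creatine synthesis, uptake and kinases, 5 of 8 genes were tested, 1 was higher (Gatm), 1 was lower (Slc6a8) and 3 were not called (Ckb, Ckm and Gamt). Gatm encodes the first, rate-limiting enzyme of creatine synthesis. Its intensity was 229 at the lowest, 273 at the median and 297 at the highest of the TG arrays, against 194, 205 and 233 on the WT arrays. Every TG heart lay above every WT heart after normalization, while the raw intensities overlapped. The probe was dim, detected in 6 of 6 TG and only 4 of 6 WT hearts, so it reached the 6 arrays that the filter required through the TG group, and it was left out by the stricter filter. The log2 difference was 0.86 (SE 0.12, adjusted p = 0.000221), and 0.40 without background correction, where it was still called. Gamt, the second enzyme of creatine synthesis, had the opposite sign and was named after its values were seen. It read 354 at the lowest, 420 at the median and 584 at the highest of the TG arrays, against 440, 487 and 635 on the WT arrays (log2 difference -0.34, 95% interval -0.63 to -0.05, adjusted p = 0.0935). Without TG heart 2, the highest of the TG group, it was called lower (-0.45, adjusted p = 0.0127). No other array left out gave a call for Gamt, and with all arrays in the fit it was called in 0 of 11 alternatives.

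The list of AMPK subunits had 4 of 7 genes tested and 0 called (1 at an unadjusted p under 0.05, limma). That was Prkaa1, the other catalytic subunit, named after its values were seen. Its probe was detected in 6 of 6 TG and 1 of 6 WT hearts and so entered the test through the TG arrays alone, and its mean intensity was 192.7 ± 12.9 in TG and 185.1 ± 13.4 in WT hearts, which overlapped. Prkag2 was the brightest of the list (-0.03, adjusted p = 0.767). Of the kinases and adaptors that activate AMPK, 7 of 8 were tested and 0 called, also at an unadjusted p under 0.05. Their brightest gene was Cab39, a scaffold of the kinase LKB1, at -0.15 (adjusted p = 0.156). Prkag2 and Cab39 both turned positive, uncalled, when centred on the cardiomyocyte markers.

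Of the 15 genes listed as AMPK targets in metabolism and growth, 8 were tested, 0 were higher and 2 were lower, and the median difference of the list was -0.20. Slc2a4, the insulin-responsive glucose transporter GLUT4, had an intensity of 2395 at the lowest, 2716 at the median and 3092 at the highest of the TG arrays, against 3380, 3980 and 4559 on the WT arrays. The groups did not overlap, and the log2 difference was -0.48 (SE 0.07, adjusted p = 0.000233). Mlycd, the malonyl-CoA decarboxylase that relieves the block on fatty acid entry into mitochondria, read 2582, 2780 and 3729 (lowest, median and highest) in TG, against 3535, 4285 and 4601 in WT. These raw intensities overlapped, the normalized values did not, and the log2 difference was -0.45 (SE 0.08, adjusted p = 0.00106). Both genes kept their call in every alternative.

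Purine enzymes that work around Ampd3 moved in both directions. In the list of adenine nucleotide breakdown and salvage, 12 of 20 genes were tested, 3 were higher, 1 was lower and 8 were not called, with a median difference of 0.02. Pnp, the purine nucleoside phosphorylase, read 2387 at the lowest, 2657 at the median and 2896 at the highest of the TG arrays, against 1682, 1881 and 2296 on the WT arrays (log2 difference 0.56, SE 0.08, adjusted p = 0.000168). The other higher genes were Adss2, which makes adenylosuccinate from IMP (0.46, adjusted p = 0.000992), and Ada, the adenosine deaminase (0.65, adjusted p = 0.00151). Without background correction, the difference of the dim Ada probe was 0.30 (adjusted p = 0.00174). Hprt1, which salvages hypoxanthine and guanine, was lower (-0.31, adjusted p = 0.00151) and lost its call when centred on the cardiomyocyte markers (-0.12, adjusted p = 0.17). Because the smallest p-values of this list lay close together, all 4 called genes were named after they were seen. The normalized TG and WT values of all 4 genes did not overlap, beside 10.8% of all tested probes. These genes were picked because they were called, so this adds no support. The raw intensities of Ada and Adss2 overlapped. Nt5c3a, a nucleotidase named after its values were seen, had overlapping raw intensities but no overlap after normalization. Nt5c3a lay just outside the threshold (-0.18, adjusted p = 0.0506). It was called lower in 8 of 11 alternatives with all arrays (adjusted p = 0.00984 to 0.0468), where the list then held 2 lower genes, and stood at 0.01 when centred.

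The nucleoside diphosphate kinases, which pass phosphate from ATP to other nucleotides, had 4 of 6 genes tested, of which 1 was higher and 2 were lower. Nme3 read 344 at the lowest, 384 at the median and 451 at the highest of the TG arrays, against 638, 757 and 845 on the WT arrays. This decrease of -1.24 on the log2 scale (SE 0.10, adjusted p = 1.76e-06) was the largest difference among the tested genes of the 9 lists. Without background correction, the Nme3 difference was -0.93 (adjusted p = 3.21e-07 by limma). Nme2, whose median intensity was 7705 in TG and 11718 in WT hearts, had a log2 difference of -0.44 (SE 0.07, adjusted p = 0.00037). Nme1, with medians of 1054 in TG and 918 in WT, had a log2 difference of 0.36 (SE 0.09, adjusted p = 0.0109). Nme1 and Nme2 are close relatives in sequence, and whether their probes tell them apart was not tested.

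**Figure D4:**
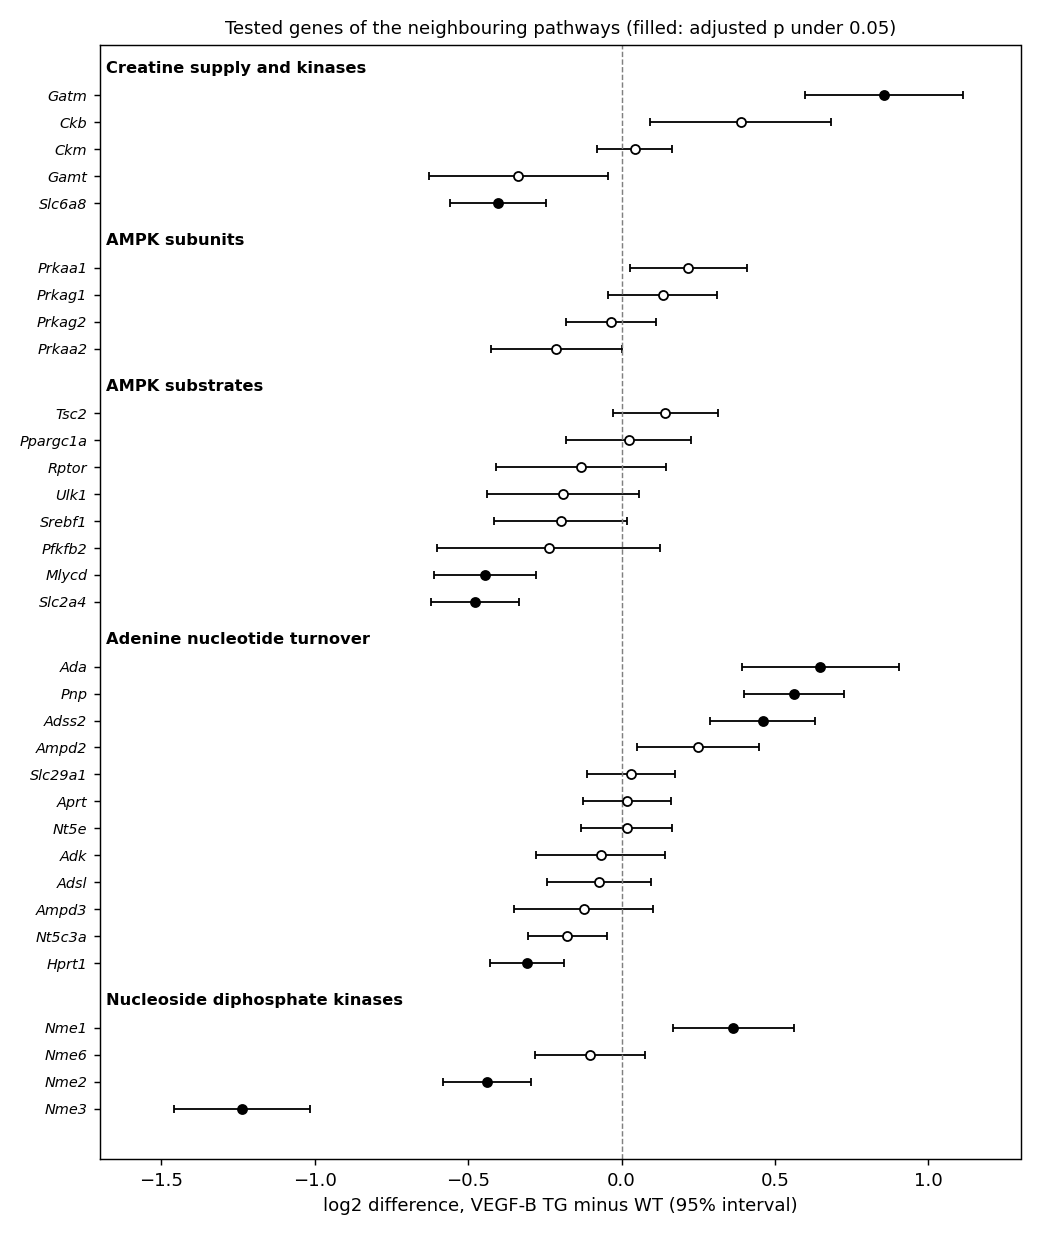
Log2 difference, VEGF-B TG minus WT (x axis), of the tested genes in 5 of the 9 lists (rows), with bars for the 95% interval, filled points for an adjusted p under 0.05 and the dashed line at 0. Filled points lie on both sides of 0, from Nme3 at -1.24 to Gatm at 0.86. Prkag2 and Ampd3 are among the open points that changed sign with centring on the cardiomyocyte markers.

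The lists for the remaining steps on the route of phosphate and oxygen held no called gene, and at an unadjusted p under 0.05 (limma) held 0 higher and 1 lower, Ak3. Of the adenylate kinases, 2 of 9 genes were tested, and the brighter was the mitochondrial Ak3 (-0.14, adjusted p = 0.103). Ak3 passed the threshold without background correction (-0.14, adjusted p = 0.0499) and with median scaling (-0.24, adjusted p = 0.0137), and turned positive when centred (0.04, adjusted p = 0.59). Of the mitochondrial adenine nucleotide, phosphate and outer membrane channels, 6 of 7 were tested, led in brightness by the ATP/ADP carrier Slc25a4 (-0.04, adjusted p = 0.661), whose sign turned with cyclic loess (0.09) and with centring (0.15). Of the globins, 3 of 6 were tested, with the beta globin Hbb at 0.03 (adjusted p = 0.753) and at 0.22 when centred (adjusted p = 0.0127). Slc25a4 (mean intensity 30210 in TG and 31180 in WT hearts) and Hbb (33700 and 32960) also read near the top of the measured range. How far that flattened their differences was not tested.

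For each measured gene, the 2 named probes most alike in their variation among rats were found from Pearson's r of log2 values after subtracting each group's mean, over 12 arrays and 5766 candidate probes detected on every array. Slc6a8 was most like Ung (r = 0.93, rho = 0.937) and Mrps7 (r = 0.869, rho = 0.804). Ckb was most like Adamts7 (r = 0.91, rho = 0.811) and Rabggta (r = 0.901, rho = 0.776), and Ckm most like Ints12 (r = 0.917, rho = 0.888) and Sdcbp (r = 0.908, rho = 0.856). These values describe the same 12 arrays, which share their normalization, and were picked as the highest of many, so they carry no p-value. Mb was most like Bola3 (r = 0.845, rho = 0.704) and Pcdh9 (r = 0.817, rho = 0.623), at a lower r than the other genes. The closest probes for Prkaa2 were Ncdn (r = 0.901, rho = 0.923) and Atp5me (r = 0.901, rho = 0.883). For Prkag1 they were Synrg (r = 0.894, rho = 0.909) and Klhl41 (r = 0.879, rho = 0.608, the lowest rho of all pairs). Ampd3 was closest to Lypla1 (r = 0.892, rho = 0.804) and Rras2 (r = 0.883, rho = 0.846).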

How the data were processed

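Each of the 12 rats gave 1 array of left ventricular RNA, grouped by its sample title. The authors summarized bead intensities with GenomeStudio, and the deposited table gave an intensity and a detection p-value per probe and array, without normalization. The authors also deposited log2 values after quantile normalization in Chipster, without background correction: quantile values recomputed from the intensities were within 0.005 of them. Tool versions are not given in the sources used here.

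Background was removed with the detection p-values (neqc of limma 3.58.1, R 4.3.3, offset 16), followed by quantile normalization and log2. A probe was tested if its detection p was under 0.05 on 6 or more of the 12 arrays (9054 probes), with lmFit and eBayes, Benjamini-Hochberg adjustment over all tested probes and a threshold of 0.05. The fit was tested on simulated data. P-values set the group difference against the spread between these rats, whose number limits the precision. The eBayes step also draws each probe's variance towards that of all tested probes. No source used here names a chip or scan batch.

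Of 22517 probes, 13787 had 1 symbol in the platform annotation and 8730 had none. The current GRCr8 symbol of the same gene number replaced 13747 of these names, and 40 were left as given. The platform annotation names no genome build, so only the RefSeq promoter windows have coordinates.

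The members and gene lists were chosen with earlier results of these data known. Named were all members, up to 3 called genes with the smallest p of each list (otherwise its brightest tested gene), and for each member the 2 most similar probes. A gene's brightest probe was used. The fit was repeated with no background correction, normexp with an offset of 50, cyclic loess, median scaling, the deposited log2 table, no filter, a filter at 0.01 on all arrays, array weights, replicate block, variances with trend and robust estimates, a threshold of 0.01, each array left out and, added after seeing the data, values centred on cardiomyocyte markers.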

Additional observations from a re-analysis of the deposited data

Results flagged for a closer look

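In 6 of 70 groups of 6 arrays examined (35 named genes, TG and WT), 1 array stood apart from the other 5, its gap to the nearest array divided by the group's range being above Dixon's critical value for 6 values. Chance flags about 1 in 20 groups. All 6 were TG groups. For Ckb, TG heart 6 had a log2 value of 10.99, with the nearest TG heart at 11.62. For Prkag1, TG heart 6 stood at 9.35, with the nearest at 9.60. For Icam2, an endothelial marker, the same heart stood above the others, at 11.33 with the nearest at 11.03. For Gamt, TG heart 2 stood at 8.75, with the nearest at 8.20. For Mlycd, TG heart 3 stood at 11.81, with the nearest at 11.51, and for Hprt1, TG heart 5 stood at 12.38, with the nearest at 12.48. TG heart 6 had a mean absolute deviation of 0.164 from its group mean over the tested probes, against 0.126 to 0.142 for the other 11 arrays, and 9655 detected probes, the most of the 12. Its part in the Ckb and Prkag1 values is given by leaving it out: the Ckb difference was then 0.52 (adjusted p = 0.0019) and the Prkag1 difference 0.19 (adjusted p = 0.11).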

How the results depend on the processing

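Over all tested probes, 1050 were higher and 931 lower in TG hearts, and leaving out 1 array gave 847 to 1014 higher and 752 to 968 lower. At an adjusted p of 0.01 there were 561 higher and 475 lower. Centring on the cardiomyocyte markers used all 12 marker probes detected on every array, with more than 1 probe of Ryr2. Their mean log2 value was 12.04 to 12.18 in TG and 12.27 to 12.37 in WT hearts. That differs from the mean over the 11 genes given above, which took 1 probe per gene. This centring gave 3312 higher and 348 lower, so that 90.5% of calls were higher rather than 53%. It moved the median of all probes to 0.18. Of the 7 members, 1 was called lower in every alternative, always Slc6a8. The number called higher was 0 as reported and 1, always Ckb, without background correction, with normexp, with the deposited table, with the filter at 0.01, with the replicate block (adjusted p = 0.0445) and with array weights, while leaving out 1 array gave 0 to 1. It was 4 when centred (Ckb, Ckm, Prkag1 and Mb). Reversed signs were those of Mb (0.0755 with cyclic loess, 0.171 centred), Ampd3 (0.0639 centred), Ak3 (0.0433 centred), Prkag2 (0.153 centred, 0.00528 without TG heart 6, and -0.0606 without TG heart 4 at the other end), Cab39 (0.0383 centred), Nt5c3a (0.0116 centred) and Slc25a4 (0.0914 with cyclic loess, 0.148 centred). Centring raised every difference by the same 0.188, which by construction turned the signs of genes with a small negative difference and says nothing about these genes singly. For cyclic loess the cause was not tested. For the members, 147 of 161 alternative values kept direction and call, and for the other 28 named genes 614 of 640. Whether the replicate numbers pair the arrays could not be settled, since 6 weak correlations are too few to decide it. Deviations of same-numbered TG and WT arrays correlated at -0.145 to 0.227, with 4 of 6 pairs over 0.1. Of the 6 TG arrays, 3 were closest to their own number. The replicate block changed no member's call other than that of Ckb. Ckmt2 minus Ckm was not run, since no probe was named Ckmt2. Dim probes such as Prkaa2, Prkaa1 and Gatm lay close to background, which limits their fold changes.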
